A study of Rattus norvegicus with 4 samples.

Results

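The amino acid response is the transcript program a cell runs when amino acids are short, and the genes described here are its main members together with the cytosolic aminoacyl-tRNA synthetases, 50 listed genes in all. A gene entered through a probe set that the platform annotation gives exactly 1 symbol, spelled as listed or with or without a final 1 (Aars or Aars1). For a gene with more than 1 such probe set the brightest, by its mean on the 4 arrays, stood for it. This found 48 of the 50 members among 18166 genes tested; Sesn2 and Dars were not analysed here. The members fall into 5 transcription factors, 5 feedback and stress effectors, 11 synthesis enzymes, 9 amino acid transporters and 18 synthetases, 7 of them subunits of the multisynthetase complex.

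The tissue was whole uterus of Sprague Dawley rats aged 10 to 12 weeks, taken on day 5 of pregnancy, before implantation, and each array carries 1 labelled biological replicate. The ormeloxifene group, 2 arrays, came from rats that on pregnancy day 1 were fed ormeloxifene at 1.25 mg per kg, in gum acacia, and the vehicle group, also 2 arrays, from rats given the vehicle alone on that day. Ormeloxifene, an oral contraceptive, is a selective modulator of oestrogen receptors without a steroid skeleton. The sources used here do not say how many rats contributed to an array. The comparison asks which transcripts of the program differed between the groups.

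Cells read a shortage of amino acids through uncharged tRNA, which activates the kinase GCN2 (gene Eif2ak4). That kinase phosphorylates eIF2 alpha, which lowers translation in general and raises translation of the transcription factor ATF4, so ATF4 activity is set largely at the protein and need not show in its transcript. ATF4 acts with partners of the C/EBP family and induces transporters, synthesis enzymes, tRNA synthetases and its own feedback inhibitors. Other kinases of eIF2 alpha feed the same factor, and growing tissues draw on its targets for protein and nucleotide synthesis.

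All values below are log2 signals after quantile normalization of the deposited table, 1 unit being a doubling of signal. Differences are ormeloxifene minus vehicle, from limma fitted over all genes, with their standard error. A signal depends on its probes, so levels are compared only within a gene. In whole uterus, fewer cells of a type and less RNA per cell cannot be told apart.

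Arrays resembled each other by replicate number. Arrays of the same number correlated at r = 0.98 and 0.983 across genes, against 0.973 within the ormeloxifene group and 0.963 within the vehicle group, and they held 488 and 551 exactly equal deposited values where every other pair of arrays held 0. Differences within replicate number 1 and within number 2 are therefore given beside the group difference. The labels name no batch. Every probe set gives some signal, so a signal alone does not show that a marker was expressed. A list of 5 liver genes, markers of another tissue, had summed linear signals from 288 to 304 with vehicle and from 297 to 311 with ormeloxifene. Their log2 signals ran from 4.69 to 7.06. The summed linear signal of 6 smooth muscle genes ran from 10279 to 11354 with vehicle and from 12442 to 13835 with ormeloxifene. That of 8 stromal genes ran from 16404 to 17555 and from 17205 to 18356. For 8 epithelial genes it ran from 1467 to 1489 and from 1495 to 1525. A sum follows its brightest genes, and 5 of the 8 epithelial genes were lower, at a median difference of -0.03. The dimmest epithelial signal was a log2 value of 5.64, in Foxa2, near the array medians (5.67 to 5.93 as deposited).

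At the probe sets used, 3 members showed the most marked differences of the program, all lower with ormeloxifene. They were Asns, the amidotransferase that makes asparagine, and Slc7a5 and Slc7a11, a pair of amino acid exchangers. These alone of the 48 members had an unadjusted p under 0.05 by limma, where 1.08% of all genes tested were lower at that p. The same 3 members were lower by at least 0.5 on the log2 scale, as were 1.69% of all genes, and 0 members were higher by as much, against 1.94% of all genes. No member was higher at an unadjusted p under 0.05, against 1.12% of all genes. After Benjamini-Hochberg adjustment over all genes 0 of 48 members passed the threshold of 0.05 by limma, and 0 of all genes did (0%). At an unadjusted p under 0.05 stood 399 genes, 2.2% of those tested. Without ormeloxifene replicate 2 the count of members at that p was 1.

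Asns read 7.87 and 7.83 on the vehicle arrays and 7.16 and 7.07 on the ormeloxifene arrays. Both ormeloxifene arrays lay below both vehicle arrays, and the gap between the groups was many times the spread within either. The group means were 7.85 ± 0.03 with vehicle and 7.12 ± 0.06 with ormeloxifene (SD, n = 2 each). The difference was -0.74 ± 0.20, with a 95% interval from -1.21 to -0.27, a 1.67-fold lower signal. By limma the unadjusted p of Asns was 0.00723 and its adjusted p 1.00. Within replicate numbers 1 and 2 Asns differed by -0.72 and -0.76.

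Slc7a5, the light chain of the large neutral amino acid transporter that brings in leucine and other essential amino acids, read 7.54 and 7.57 with vehicle and 6.82 and 7.01 with ormeloxifene. The ormeloxifene arrays were again both below the vehicle arrays. The difference was -0.64 ± 0.21 (95% interval from -1.12 to -0.16), 1.56-fold lower. By limma its unadjusted p was 0.01585 and its adjusted p 1.00, and within numbers 1 and 2 it differed by -0.72 and -0.56.

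Slc7a11 is the light chain of the exchanger that takes up cystine for glutathione synthesis. At the probe sets used it had the largest difference of the 48 members, the second probe set of Mthfd2 (-1.14) being left out. Slc7a11 read 7.55 and 6.84 with vehicle and 6.58 and 5.84 with ormeloxifene. The groups did not overlap, but replicate 2 was lower than replicate 1 in both of them, by more than the gap between the nearest arrays of the groups. The difference was -0.98 ± 0.33 (95% interval from -1.76 to -0.21), 1.98-fold lower. By limma its unadjusted p was 0.0193 and its adjusted p 1.00. Within numbers 1 and 2 it differed by -0.97 and -0.99, and with the number as a block in limma its unadjusted p was 0.00031 and its adjusted p 0.206. On the deposited values without quantile normalization the block in limma gave Slc7a11 an adjusted p of 0.0145, past the threshold, at a difference of -0.95. It was -1.35 without ormeloxifene replicate 1, -1.34 without vehicle replicate 2, -0.62 without ormeloxifene replicate 2 and -0.62 without vehicle replicate 1.

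**Figure D1:**
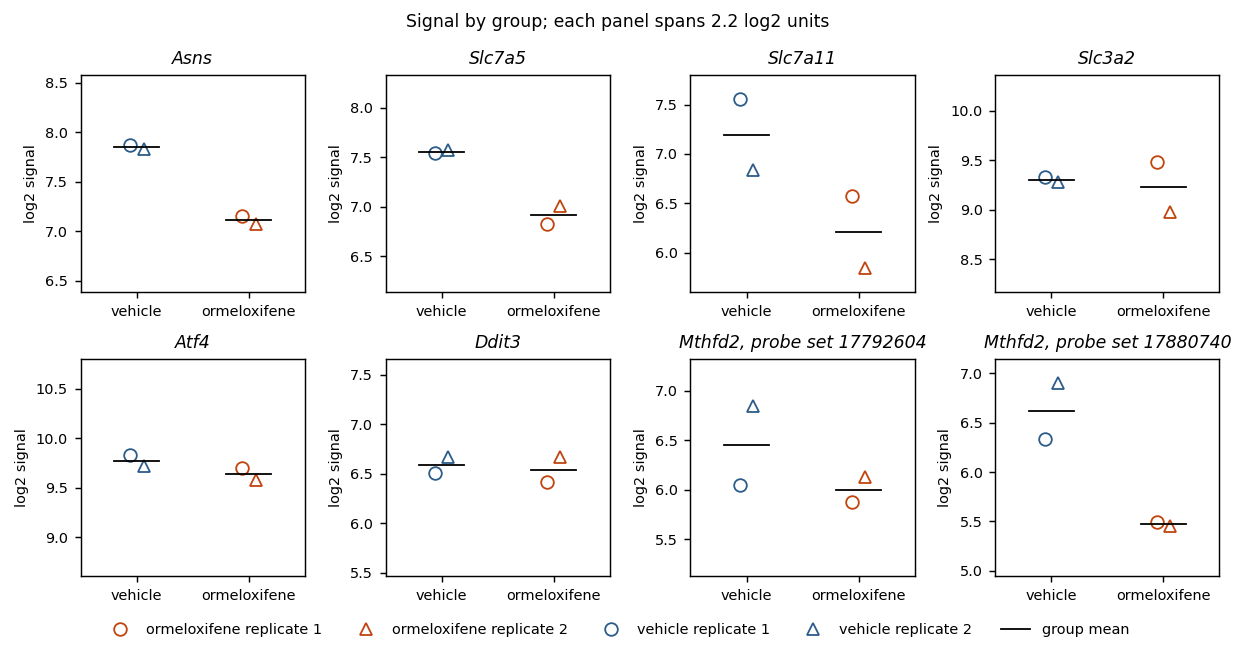
Log2 signal (vertical axis; each panel spans 2.2 log2 units) of Asns, Slc7a5, Slc7a11, Slc3a2, Atf4, Ddit3 and both probe sets of Mthfd2 on each array, by group, with circles for replicate 1, triangles for replicate 2 and a line at the group mean. Asns, Slc7a5, Slc7a11, Atf4 and the dimmer probe set of Mthfd2 lie lower on both ormeloxifene arrays. The differences of Atf4 and Ddit3 are -0.14 and -0.05.

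Slc7a5 and Slc7a11 both work only when paired with the heavy chain encoded by Slc3a2, and the difference of that partner was close to 0. Slc3a2 read 9.33 and 9.28 with vehicle and 9.49 and 8.98 with ormeloxifene. One ormeloxifene array lay above and the other below both vehicle arrays. The difference was -0.07 ± 0.24, and it was 0.16 within number 1 and -0.30 within number 2, so the interval from -0.63 to 0.49 leaves either sign possible. The difference between the chains was not itself tested.

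The program as a whole leaned lower. Of the 48 members, 34 (70.8%) were lower with ormeloxifene and 14 higher, against 46.6% of all genes tested that were lower. The median member difference was -0.08, the median of all genes 0.02. The 2 groups did not overlap for 17 members that were lower and 4 that were higher, where 11.8% and 13.9% of all genes did so. The median was -0.15 without ormeloxifene replicate 1 (32 lower), -0.14 without vehicle replicate 1 (35 lower), -0.13 without ormeloxifene replicate 2 (31 lower) and -0.06 without vehicle replicate 2 (29 lower). Replicate number 1 alone gave a median of -0.08 and 30 lower members, number 2 alone -0.15 and 37. The corresponding medians of all genes were 0.04 and -0.02. In 25 members (52.1%) the arrays of number 1 and number 2 differed by more than the groups did, against 63.9% of all genes. Most of the lower members had differences far smaller than those of Asns, Slc7a5 and Slc7a11. Leaving out 1 array or another turned the sign of 21 of the 48 members. The members were chosen with earlier results of these data known and share the same 4 arrays, so these counts carry no test.

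**Figure D2:**
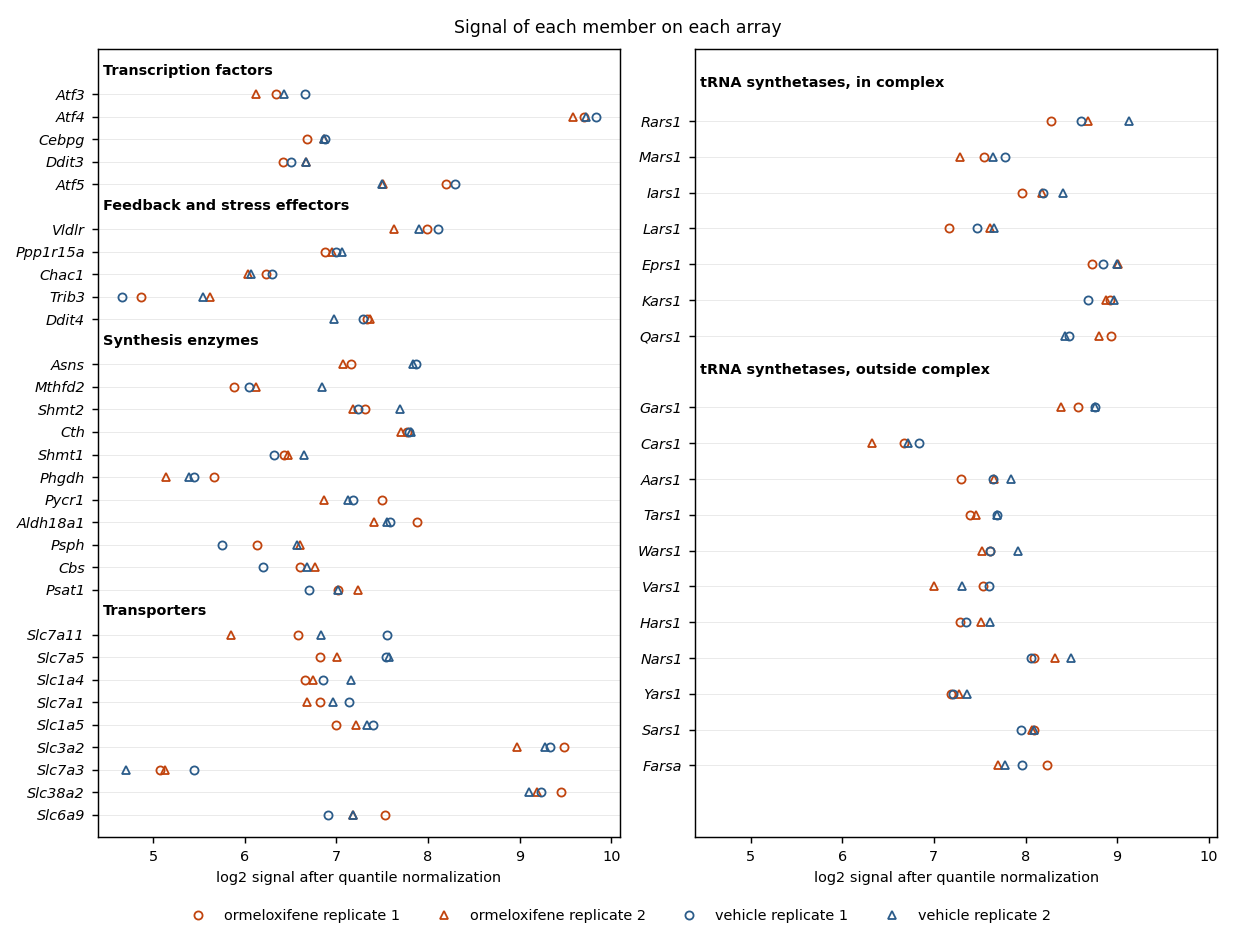
Log2 signal after quantile normalization (horizontal axis) of each of the 48 members on each of the 4 arrays, by role and ordered by difference; colour gives the group, circles replicate 1 and triangles replicate 2. Asns and Slc7a5 show the 2 groups as separate pairs, whereas Atf5 and Trib3 pair by replicate number.

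The transcription factors of the program were lower in 5 of 5 members, all by little. Atf4, the factor at its centre, read 9.83 and 9.72 with vehicle and 9.70 and 9.58 with ormeloxifene. The ormeloxifene arrays were the lower pair, but the nearest arrays of the groups almost touched. The difference was -0.14 ± 0.21 (95% interval from -0.62 to 0.34), and -0.13 and -0.14 within numbers 1 and 2. Atf3, a stress-induced factor of the same family that ATF4 itself induces, read 6.66 and 6.43 with vehicle and 6.34 and 6.12 with ormeloxifene. Its groups did not overlap, and its difference of -0.31 ± 0.22 did not pass (unadjusted p = 0.188 by limma).

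Ddit3, which encodes the pro-apoptotic factor CHOP, read 6.51 and 6.67 with vehicle and 6.42 and 6.67 with ormeloxifene, a difference of -0.05 ± 0.22. Cebpg, a C/EBP protein that dimerises with ATF4, differed by -0.10 ± 0.21. Atf5, a factor translated under the same control as ATF4, differed by -0.04 ± 0.34. Atf5 read 8.29 and 7.50 with vehicle and 8.19 and 7.51 with ormeloxifene, so its arrays split by replicate number and not by group.

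Feedback and stress effectors went both ways, 3 lower and 2 higher of 5, with 0 at an unadjusted p under 0.05 by limma. Ddit4, an inhibitor of the growth kinase complex mTORC1, read 7.29 and 6.97 with vehicle and 7.33 and 7.37 with ormeloxifene. The ormeloxifene arrays were the higher pair by a narrow margin, and the difference was 0.22 ± 0.22, from 0.04 within number 1 to 0.40 within number 2. Vldlr, a lipoprotein receptor induced by ATF4 under stress, read 8.11 and 7.90 with vehicle and 7.99 and 7.63 with ormeloxifene. Its groups overlapped, and it differed by -0.20 ± 0.23.

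Trib3, the pseudokinase that feeds back on ATF4, read 4.65 and 5.54 with vehicle and 4.87 and 5.63 with ormeloxifene. All of these signals lay below the array medians (5.67 to 5.93 as deposited). The arrays of Trib3 too split by number, and the difference was 0.15 ± 0.36. Chac1, which degrades glutathione and is among the most inducible ATF4 targets, differed by -0.05 ± 0.21, and Ppp1r15a, the phosphatase subunit that reverses eIF2 alpha phosphorylation, by -0.11 ± 0.20. The 95% intervals were from -0.55 to 0.45 for Chac1 and from -0.69 to 0.99 for Trib3.

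Among the 11 enzymes that make amino acids and one-carbon units, 6 were lower and 5 higher, with Asns the lowest at the probe sets used. Mthfd2, the mitochondrial folate enzyme of one-carbon metabolism, read 6.05 and 6.84 with vehicle and 5.88 and 6.12 with ormeloxifene at the probe set with the higher mean. The groups overlapped, since ormeloxifene replicate 2 was above vehicle replicate 1, and the difference was -0.45 ± 0.29. Leaving out vehicle replicate 2 gave -0.05, and leaving out vehicle replicate 1 gave -0.84.

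Mthfd2 is the only member with a second probe set, and the probe sets disagreed in size. The second read 6.33 and 6.90 with vehicle and 5.49 and 5.46 with ormeloxifene. Those ormeloxifene signals lay below the array medians (5.67 to 5.93 as deposited). At this probe set the groups were clearly separate, with a difference of -1.14 ± 0.28 (-0.84 and -1.45 within numbers 1 and 2). When all probe sets were tested, its unadjusted p by limma was 0.0072 and its adjusted p 1.00. With the probe sets averaged Mthfd2 differed by -0.80, and 4 members were then lower at an unadjusted p under 0.05 by limma.

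The serine and glycine branch that feeds this enzyme showed no common direction. Psat1, an aminotransferase of serine synthesis, read 6.70 and 7.01 with vehicle and 7.02 and 7.24 with ormeloxifene, a difference of 0.27 ± 0.22 in the opposite direction to Asns. Phgdh, the first enzyme of that route, differed by -0.015 ± 0.24 and Psph, the last, by 0.21 ± 0.31. Phgdh read from 5.14 to 5.67, at or below the array medians (5.67 to 5.93 as deposited). The hydroxymethyltransferases that split serine into glycine and a one-carbon unit differed by -0.03 ± 0.22 (Shmt1, the cytosolic form) and by -0.22 ± 0.24 (Shmt2, the mitochondrial form). Shmt2 was 0.08 within number 1 and -0.52 within number 2. Proline synthesis (Aldh18a1 at 0.07 ± 0.24, Pycr1 at 0.02 ± 0.26) and the transsulphuration enzymes that turn homocysteine into cysteine (Cbs at 0.24 ± 0.24, Cth at -0.06 ± 0.20) differed by about their standard error or less.

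Transporters had the lowest median of the role groups, -0.26, with 6 of 9 lower, where 46.6% of all genes were, and 5 of the 6 with groups that did not overlap, where 11.8% of all genes were lower without overlap. Besides Slc7a5 and Slc7a11 these were Slc1a4 and Slc1a5, exchangers of small neutral amino acids such as serine, alanine and glutamine, and Slc7a1, the main carrier of arginine and lysine. Slc7a1 read 7.14 and 6.96 with vehicle and 6.82 and 6.68 with ormeloxifene, a difference of -0.30 ± 0.21. Slc1a4 differed by -0.31 ± 0.22 and Slc1a5 by -0.26 ± 0.21.

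Of the transporters that were higher, Slc6a9, a glycine carrier, read 6.90 and 7.18 with vehicle and 7.53 and 7.19 with ormeloxifene. Its difference of 0.31 ± 0.23 came from number 1 (0.62), the arrays of number 2 being level (0.0025). Slc38a2, the glutamine and alanine carrier that amino acid shortage induces, differed by 0.15 ± 0.21 and Slc7a3, a second arginine carrier, by 0.03 ± 0.28. Slc7a3 read from 4.71 to 5.45, below the array medians (5.67 to 5.93 as deposited). None of the 3 higher transporters passed, and 95% intervals reached from -0.23 to 0.85 for Slc6a9.

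**Figure D3:**
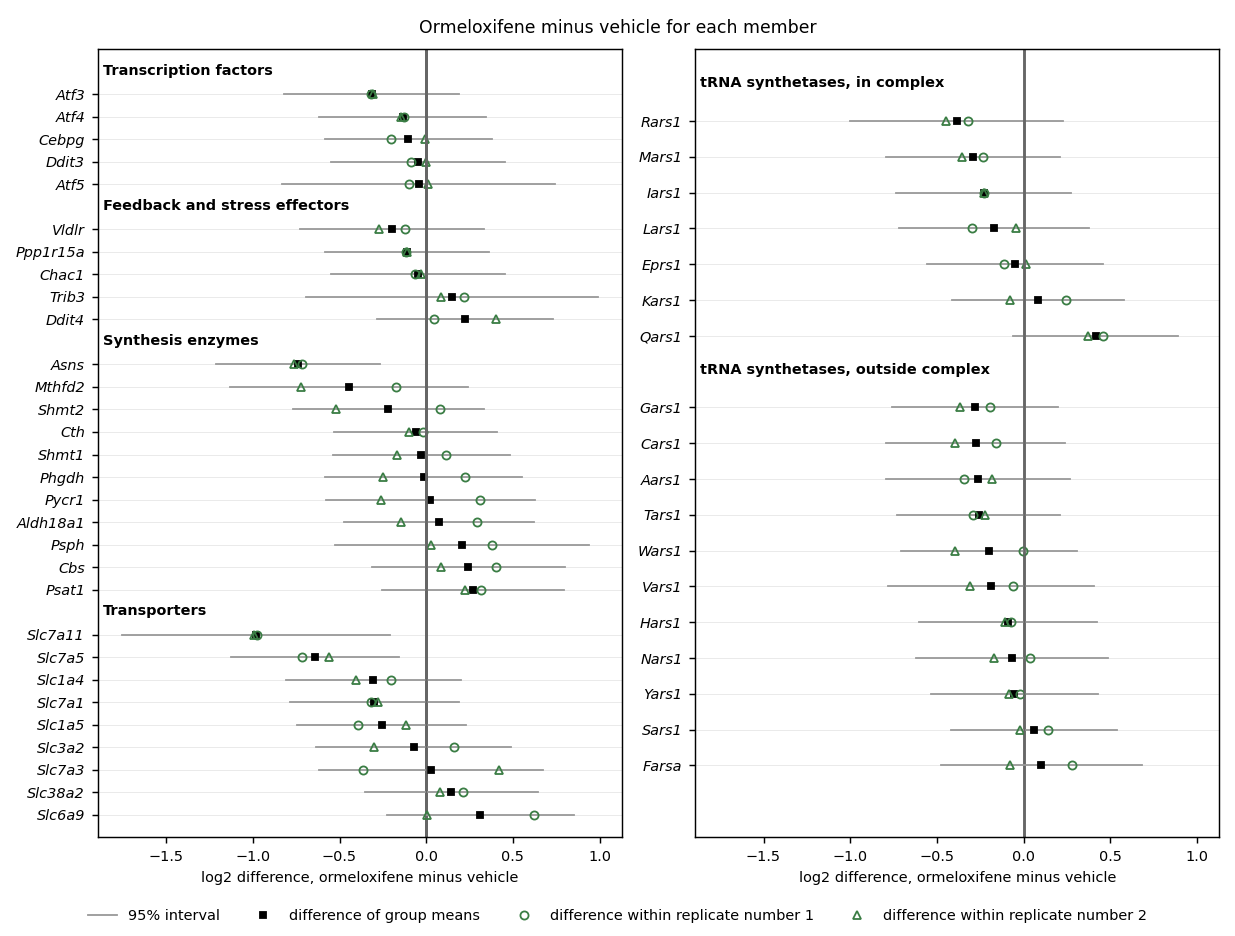
Log2 difference, ormeloxifene minus vehicle (horizontal axis), of each of the 48 members by role: squares give the difference of group means, bars its 95% interval from limma, circles and triangles the difference within replicate numbers 1 and 2. The intervals of Asns, Slc7a5 and Slc7a11 lie below 0, and all others reach 0.

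The cytosolic tRNA synthetases, which charge each tRNA with its amino acid, were lower in 14 of 18 members, at a median of -0.18, yet 0 of the 18 had an unadjusted p under 0.05 by limma (2.2% of all genes did). Of 7 complex subunits 5 were lower, at a median of -0.17 (-0.23 and -0.08 within numbers 1 and 2), and of 11 enzymes outside the complex 9 were lower, at a median of -0.19 (-0.06 and -0.18). Whether these classes differed was not tested. Number 1 alone gave a median of -0.09 over the 18 and 13 lower, number 2 alone -0.18 and 16. The members are probe sets on the same 4 arrays and no independent replicates, so these counts describe the arrays and carry no test.

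Qars1, the glutaminyl-tRNA synthetase of the complex, had the largest difference of the 4 synthetases that were higher. It read 8.47 and 8.44 with vehicle and 8.93 and 8.81 with ormeloxifene. Both ormeloxifene arrays were higher, and the difference was 0.42 ± 0.20 (95% interval from -0.06 to 0.89; 0.46 and 0.37 within numbers 1 and 2). Its unadjusted p was 0.0780 by limma, and 0.03545 with the number as a block, where its adjusted p was 0.701.

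Rars1, the arginyl-tRNA synthetase of the same complex, read 8.60 and 9.13 with vehicle and 8.28 and 8.68 with ormeloxifene. Replicate 1 was the lower array in each group, the groups overlapped, and the difference was -0.39 ± 0.26. Leaving out vehicle replicate 2 brought Rars1 to -0.12, and leaving out ormeloxifene replicate 1 to -0.18, ormeloxifene replicate 2 to -0.59 and vehicle replicate 1 to -0.65. Mars1, which charges methionine on initiator and elongator tRNA alike, differed by -0.29 ± 0.21 and Iars1, the isoleucine enzyme, by -0.23 ± 0.22, both without overlap. Lars1 (leucine) differed by -0.17 ± 0.24, Eprs1 (glutamate and proline) by -0.05 ± 0.22 and Kars1 (lysine) by 0.08 ± 0.21.

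Outside the complex, Gars1, the glycine enzyme, read 8.76 and 8.76 with vehicle and 8.57 and 8.39 with ormeloxifene, a difference of -0.28 ± 0.21. Tars1, the threonine enzyme, read 7.69 and 7.69 with vehicle and 7.39 and 7.46 with ormeloxifene, a difference of -0.26 ± 0.20. Vehicle arrays nearly coincided for both genes and the ormeloxifene arrays lay below them. The standard errors stayed near 0.2 all the same, because limma moderates the spread of a gene towards that of all genes. Cars1 (cysteine, -0.28 ± 0.22), Aars1 (alanine, -0.26 ± 0.23), Wars1 (tryptophan, -0.20 ± 0.22) and Vars1 (valine, -0.19 ± 0.25) differed by similar amounts. The remaining 5, Hars1, Nars1, Yars1, Sars1 and Farsa, differed by from -0.09 to 0.10.

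With the replicate number as a block in limma, 5 members were lower at an unadjusted p under 0.05 (Asns, Slc7a5, Slc7a11, Mthfd2 and Rars1; 6.76% of all genes were at that p in either direction), where 3.02% of all genes were, and 1 was higher (Qars1), where 3.74% of all genes were. After adjustment 0 of the 48 passed in that fit (0.0275% of all genes did), the smallest adjusted p being the 0.206 of Slc7a11. The block on the values as deposited called 1 member, Slc7a11.

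Promoter sequence was examined for the DNA element through which ATF4 and C/EBP proteins act, whose core is TGATGNAA. It was searched on both strands in RefSeq promoter windows (build GRCr8, from 250 bases before to 50 bases after a transcript's start). The element was present in 12 of the 42 members with a window (28.6%), where 3.98% of all 33469 windows held it. Of the 16 synthetases with a window 7 held it, and of the 26 other members with a window 5 did. Synthetases therefore made up more of the members with the element than of those without it. The 5 others differed by -0.31 (Slc1a4), -0.30 (Slc7a1), -0.05 (Chac1), 0.02 (Pycr1) and 0.15 (Trib3). The 12 were lower in 10 cases, with a median difference of -0.24, against 20 of 30 and -0.06 in members with a window that lacked it. Over all tested genes with a window the median was 0.03 with the element and 0.02 without, and 44.1% of those with the element were lower. Whether members with and without the element differed was not tested. A match describes letters and not a bound site, and no match says only that these letters are not in the window.

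In 6 members the element began within 30 bases before the start: Slc7a1, Tars1, Iars1, Trib3, Mars1 and Nars1. The last 30 bases before the start are given for 5 of them to show the letters matched, and their place near the start is what chose them. In Slc1a4, Chac1 and Pycr1 the match began 235, 167 and 131 bases before the start. Aars1 held 1 match before the start, at 112 bases, and 1 after it, and in Cars1 and Yars1 the match lay after the start. Each is written 5′ to 3′ on the gene's strand, with the 8 bases of the match in capitals; TTNCATCA is the element read on the other strand.
Slc7a1 (chr12:11664458-11664487, plus strand): TGATGAAAccggctcggattccgcccgcgt
Tars1 (chr2:62114803-62114832, minus strand): ccgTTGCATCAgctggttagctggttccgc
Iars1 (chr17:15193653-15193682, minus strand): tcagtaTTGCATCAcctccagacgcggaac
Trib3 (chr3:161275534-161275563, minus strand): agctcaggtTTACATCAgccgggcggggat
Mars1 (chr7:65023754-65023783, minus strand): aggcccgttccggTTGCATCAgcgtgggct

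Asns, Slc7a5 and Slc7a11, the 3 members with the most marked differences, held no match in their windows. For Slc7a5 the window begins at the outermost start annotated for the gene, and the 250 bases before it are given because no capitals appear in them.
Slc7a5 (chr19:66872413-66872662, minus strand): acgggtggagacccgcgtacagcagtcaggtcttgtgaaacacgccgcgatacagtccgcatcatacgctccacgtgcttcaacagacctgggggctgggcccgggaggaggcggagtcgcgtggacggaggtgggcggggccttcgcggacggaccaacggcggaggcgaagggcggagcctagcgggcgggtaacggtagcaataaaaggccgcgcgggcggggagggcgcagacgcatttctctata
For Asns and Slc7a11 the start used by the table lies 555 and 296 bases downstream of the outermost start annotated for the gene, so their windows do not cover the sequence before that start. Of the 23 members whose window begins at the outermost start, 6 held the element.

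The wider pathway, given by 6 lists of other genes, showed 0 genes at an unadjusted p under 0.05 by limma in any list. Of all genes tested, 2.2% were at that p. Scaffolds and other subunits of the cytosolic synthetases were lower in 3 of 4, at a median of -0.19, with the scaffold Eef1e1 at -0.22 ± 0.21 and Farsb, the beta chain of the phenylalanine enzyme, at -0.18 ± 0.21. Those mitochondrial tRNA synthetases that have genes of their own were lower in 8 and higher in 7 of 15, at a median of -0.02. Their members of smallest p were Sars2 at 0.38 ± 0.20 and Pars2 at -0.31 ± 0.20. With the replicate number as a block, 1 mitochondrial synthetase, 2 further ATF4 targets and 1 mTORC1 sensing gene were higher at that p, where 3.74% of all genes were, and 0 listed genes were lower, where 3.02% were. Whether the mitochondrial and cytosolic sets differed was not tested.

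The eIF2 alpha kinases and their partners were lower in 9 of 12, at a median of -0.15. Eif2s1, which encodes eIF2 alpha itself, read 8.93 and 8.92 with vehicle and 8.58 and 8.58 with ormeloxifene, a difference of -0.35 ± 0.20 between arrays that were nearly level within each group. Nck1, an adaptor protein that binds an eIF2 subunit, differed by -0.42 ± 0.24, from -0.68 within number 1 to -0.16 within number 2. Eif2ak4, the sensor of uncharged tRNA, differed by 0.09 ± 0.26.

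A list of 26 further ATF4 targets was lower in 15 and higher in 11, at a median of -0.05. Bcat1, the cytosolic aminotransferase of branched-chain amino acids, read 7.35 and 7.70 with vehicle and 8.07 and 7.99 with ormeloxifene, a difference of 0.51 ± 0.22 that was opposite in sign to Slc7a5, an importer of the same amino acids. Tnfrsf10b, a death receptor, differed by -0.38 ± 0.22. The mTORC1 amino acid sensing list holds subunits of mTORC1, activators and inhibitors alike. It was higher in 17 of 21 genes and lower in 4, where 46.6% of all genes were lower, at a median of 0.10. Mtor and Rptor, subunits of mTORC1 itself, differed by 0.10 and 0.20, and Lamtor1 to Lamtor5 by from -0.21 to 0.14. Within numbers 1 and 2 the list medians were 0.20 and 0.07, with 6 and 9 genes lower. In both numbers 10 genes were higher, where 5076 of all 18166 genes were. The activity of mTORC1 was not tested. In 16 of the 21 (76.2%) the replicate numbers differed by more than the groups, against 63.9% of all genes. The genes of smallest p were Sesn1, a sestrin that restrains mTORC1 (0.41 ± 0.21), and Nprl2, a subunit of an mTORC1 inhibitor complex (0.33 ± 0.25; from 0.09 without ormeloxifene replicate 2 to 0.57 without ormeloxifene replicate 1). Of 7 cytosolic one-carbon and glycine cleavage genes 4 were lower, and the smallest p were those of Mtr, methionine synthase (0.24 ± 0.21), and Gldc, a glycine cleavage enzyme (0.27 ± 0.25). Leaving out each array moved Gldc between 0.015 (ormeloxifene replicate 1) and 0.52 (ormeloxifene replicate 2), and Mtr between 0.13 and 0.34. By the same measure Nck1 and Tnfrsf10b ranged from -0.68 to -0.15 and from -0.54 to -0.23, Farsb from -0.30 to -0.07, Eef1e1 from -0.30 to -0.14, and Bcat1 from 0.34 to 0.69.

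**Figure D4:**
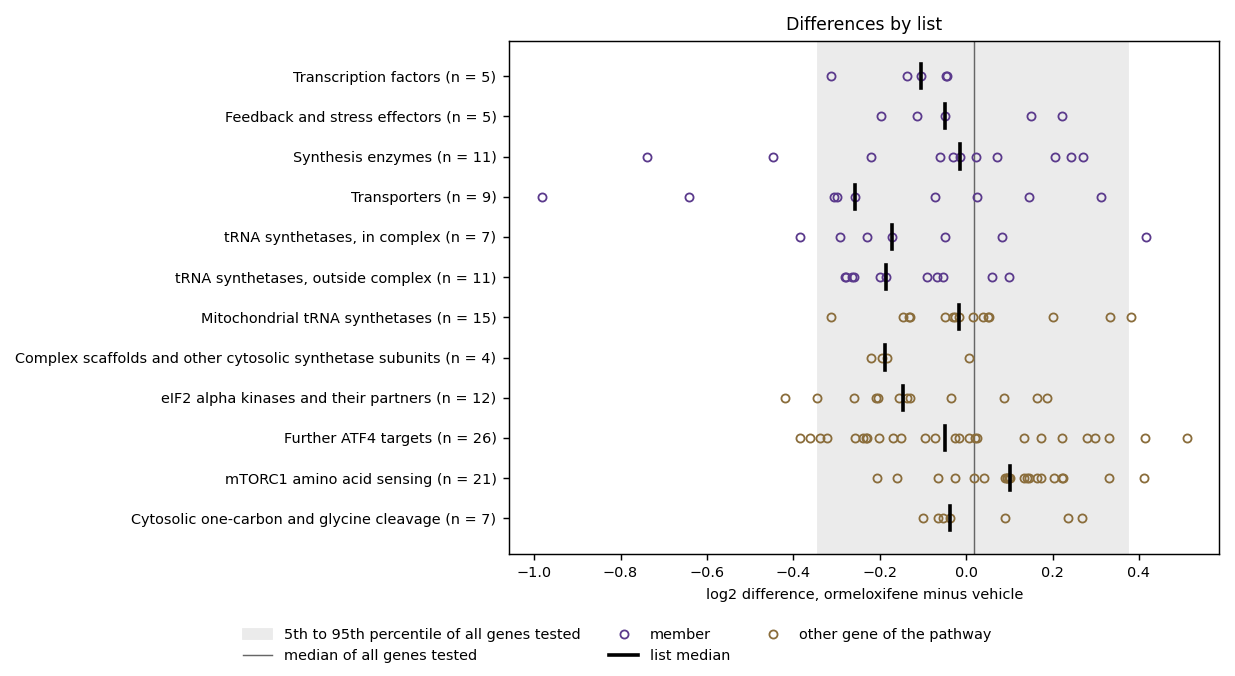
Log2 differences, ormeloxifene minus vehicle (horizontal axis), of the members by role and of the other pathway genes by list; each point is a gene, the thick bar the list median, the thin line the median of all genes tested and the grey band their 5th to 95th percentile (-0.34 to 0.37). Transporters and both synthetase classes have medians from -0.26 to -0.17, and mTORC1 sensing genes one of 0.10.

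Markers of dividing cells were lower as well. All 9 measured were lower with ormeloxifene, where 46.6% of all genes were, at a median of -0.55. At an unadjusted p under 0.05 by limma 4 were lower, where 1.08% of all genes were, and 0 passed after adjustment. Within numbers 1 and 2 the medians were -0.28 and -0.89, with 8 and 9 lower. Rrm2 differed by -0.03, from 0.51 within number 1 to -0.57 within number 2. The summed linear signal of the 9 was 1234 and 1935 on the vehicle arrays and 939 and 1061 on the ormeloxifene arrays. The lowest log2 signal of the 9 was 5.32, of Rrm2 on vehicle replicate 1. It lay below the array medians (5.67 to 5.93 as deposited) and within the range of the liver genes (4.69 to 7.06). Vehicle replicate 2, the highest array of that list, was also the highest array for 18 of the 48 members (37.5%), against 28.3% of all genes, and vehicle replicate 1 was the highest for 15 (31.2%), against 22.6% of all genes. Smooth muscle markers were higher in 6 of 6, at a median of 0.36, endothelial markers in 4 of 4, at 0.21, and leukocyte markers in 7 of 8, at 0.14. Epithelial markers were lower in 5 of 8, at -0.03, and stromal markers in 4 of 8, at 0.03. The part of any of these cell populations in the member differences was not tested.

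**Figure D5:**
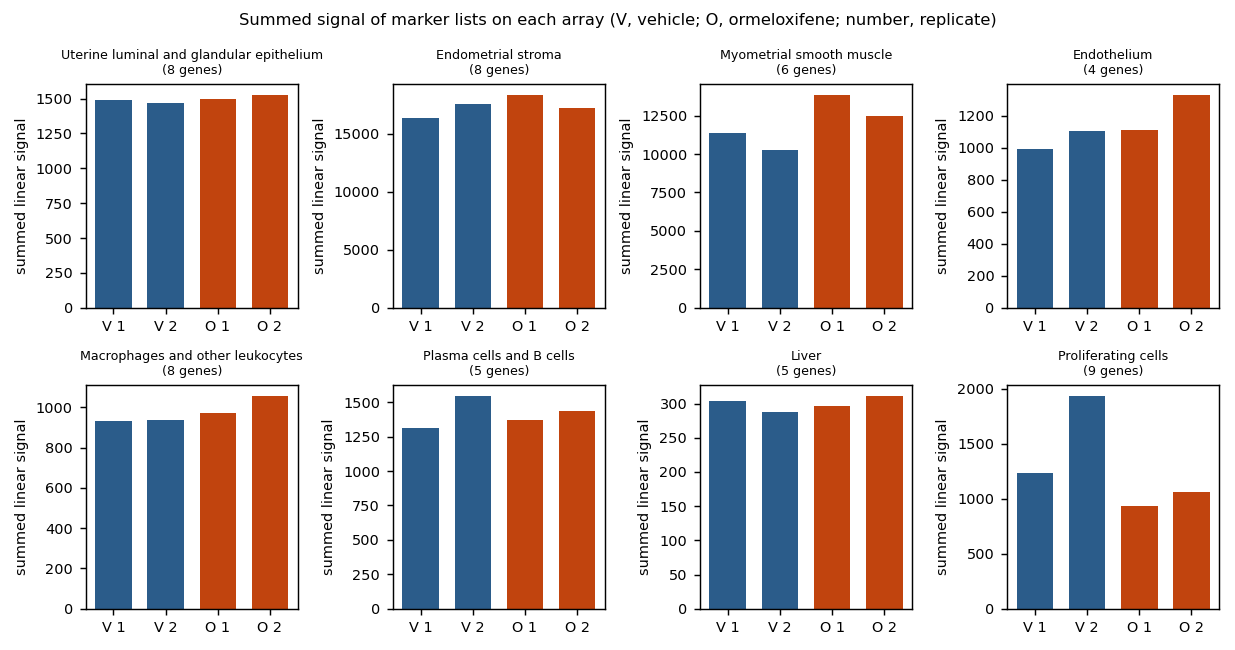
Summed linear signal (vertical axis, from 0) of 8 marker lists on each array, with vehicle arrays (V) and ormeloxifene arrays (O) numbered by replicate. The dividing-cell list is lower on both ormeloxifene arrays (939 and 1061 against 1234 and 1935), and the smooth muscle list is higher.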

How the data were processed

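Total RNA (100 ng, Trizol extraction) was hybridised to Affymetrix whole-transcript arrays, per the labels' protocols. The authors deposited log2 signals of 36685 probe sets, made with Affymetrix Expression Console per the submitters' processing notes; the sources used here give no version, summary method or genome build, and the log2 scale was read from the values. Array medians ran from 5.67 to 5.93, so quantile normalization over all probe sets was applied. Probe sets with 1 symbol (18511) were kept, 575 had several and 17599 none; 291 genes had several probe sets.

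Groups were compared with limma 3.58.1 (lmFit, eBayes, 2-sided) in R 4.3.3, without a block, with Benjamini-Hochberg adjustment over 18166 genes. The fit had 2 residual degrees of freedom, 7.55 after moderation. Its check on simulated arrays used independent noise and no effect of the replicate number, so the check does not cover that effect. P-values rest on the spread between labelled biological replicates within a group, moderated towards that of all genes. Without a block, that spread includes any difference between the replicate numbers. An exact permutation test of 2 arrays against 2 cannot go below p = 0.333. The number of arrays limits the precision.

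Members and lists were chosen with earlier results of these data known. Values per array are given for members with unadjusted p under 0.05 and, in each role group, the 2 members of smallest p, with others added after their values were seen; pathway lists are represented by the 2 genes of smallest p. Alternatives were other scalings, the replicate number as a block, each array left out, a filter dropping the dimmest 20% of genes, probe sets averaged or all tested, and eBayes with trend. Promoter windows are RefSeq's (GRCr8), matched by symbol; 6 members had none in the table.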

Additional observations from a re-analysis of the deposited data

How the results depend on the processing

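With the replicate number as a block, 5 genes passed the adjusted threshold by limma, and 1228 had an unadjusted p under 0.05; members at that p were 5 lower and 1 higher. On the values as deposited the block gave 84 genes, 1163 at an unadjusted p under 0.05, 1 member past the adjusted threshold (Slc7a11, adjusted p 0.0145, from 0.0145 to 1 over its settings) and 1 member higher at unadjusted p under 0.05. The numbers were not used to pair arrays in the reported fit, since no label says what they share; the equal values are a hint from the data. Genes past the adjusted threshold numbered 1 with arrays centred on their medians, 4 with the dimmest 20% dropped, 1 with probe sets averaged and 4 with trend and robust, where 1 member was higher at an unadjusted p under 0.05. Genes at that p numbered 142 on the values as deposited and 888 when all probe sets were tested. Leaving out each array in turn gave from 0 to 3 genes past the adjusted threshold, from 309 to 945 at an unadjusted p under 0.05, from 1 to 4 members lower at that p, and a member median from -0.147 to -0.064. The cause of these shifts was not tested. A lone array was assumed to vary like the other group.

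Phgdh turned to 0.0040 on the values as deposited, with and without the block, and Pycr1 to -0.010 with median centring. Of the 48 members, 27 kept their sign without each array, and 21 did not. Of the 27, 7 stayed within 1.5 times their reported difference (Asns, Slc7a5, Slc7a1, Ppp1r15a, Qars1, Gars1 and Tars1) and 20 did not. Nearest to 0 among these came Cbs at 0.0041 (without vehicle replicate 1), Cebpg at -0.0090 and Slc38a2 at 0.014 (without ormeloxifene replicate 1), Vldlr at -0.018 (without ormeloxifene replicate 2) and Cth at -0.030. The lowest and highest differences of those 21 were -0.44 and 0.35 for Atf5, -0.17 and 0.078 for Ddit3, -0.29 and 0.59 for Trib3, -0.16 and 0.064 for Chac1, -0.28 and 0.25 for Phgdh, -0.20 and 0.61 for Psph, -0.20 and 0.14 for Shmt1, -0.45 and 0.011 for Shmt2, -0.16 and 0.31 for Aldh18a1, -0.29 and 0.34 for Pycr1, -0.34 and 0.40 for Slc7a3, -0.33 and 0.18 for Slc3a2, -0.19 and 0.090 for Eprs1, -0.057 and 0.22 for Kars1, -0.39 and 0.048 for Lars1, -0.17 and 0.37 for Farsa, -0.22 and 0.042 for Hars1, -0.29 and 0.15 for Nars1, -0.01 and 0.13 for Sars1, -0.45 and 0.081 for Vars1 and -0.13 and 0.022 for Yars1.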
